A study of Rattus norvegicus with 12 samples.

Results

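The response of rat aortic rings to tumour necrosis factor alpha (TNF) in collagen gel was measured as the difference between 3 arrays of TNF-treated collagen cultures and 3 arrays of untreated collagen cultures, 6 of the 12 arrays of the series. Each of the 14324 genes tested was read from 1 probe set, the one of highest mean level over the 12 arrays among the probe sets that carry a single gene symbol, and 27342 probe sets were on each array. The rings came from aortas of male Fisher 344 rats aged 1-2 months, and every ring was embedded in gel and kept in serum-free EBM medium, an endothelial basal medium. The control group was collagen culture left untreated, and the treated group was collagen culture given recombinant rat TNF at 10 ng/ml. RNA was taken on day 2 and is that of the whole ring in its gel. One array holds the pooled RNA of 4 to 6 ring cultures. The other 6 arrays hold the same pair of conditions in fibrin gel. Below they serve as a comparison, enter the choice of probe set and share 1 variance per gene with the collagen arrays in the limma fit. They thus enter the standard errors and p-values of the collagen differences. The labels call the 3 arrays of a group biological replicates but do not tie them to animals, so the p-values measure the spread between these pooled samples. Neither the sources used here nor the table gives a scan or extraction batch.

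An aortic ring in gel sends out microvessel sprouts from the cut edges, and the wall around them keeps its smooth muscle, its adventitial fibroblasts and its resident macrophages. TNF is a macrophage-derived cytokine that acts through its receptors Tnfrsf1a and Tnfrsf1b. Receptor adaptors activate the IKK complex and the MAP kinases, IKK marks the inhibitors of NF-kB for destruction, and the freed NF-kB dimers enter the nucleus and switch on chemokines, cytokines, adhesion molecules and their own inhibitors.

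The deposited values are log2 levels, with medians of 5.94 to 5.98 on the 6 collagen arrays. Arrays of the same group correlated at 0.9967 to 0.9974 across genes and arrays of different groups at 0.9921 to 0.9937. As a check of the labelled tissue, the untreated arrays had mean levels of 10.79 for Myh11 (smooth muscle), 13.55 for Dcn and 11.04 for Pdgfra (fibroblast), 7.91 for Cdh5 (endothelium) and 9.38 for Csf1r (macrophage). Single markers of blood leukocytes had mean levels of 4.05 for Cd3e (T cell), 3.71 for Ms4a1 (B cell) and 2.75 for S100a8 (neutrophil). They do not stand for all markers of these cells. Summed on the linear scale, 10 B-cell markers reached 2910 to 2950 on the control arrays. The sums were 1100 to 1180 for 23 T and NK cell markers and 438 to 494 for 18 neutrophil markers. The marker genes Acta2, Pecam1 and Kdr were not analysed here. In RNA of whole rings, fewer cells of a type and less RNA per cell cannot be told apart.

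With TNF, 468 genes were higher and 444 were lower at an adjusted p below 0.05 in a limma fit over the 12 arrays, which is 3.27% and 3.10% of the genes tested and 6.37% in all. At an unadjusted p below 0.05 there were 2664 genes. The rises reached further than the falls, as the plot of adjusted p against log2 difference shows. Of the called genes, 23 rose by at least 2 on the log2 scale and 0 fell by that much, 73 rose and 36 fell by 1 to 2, and 185 rises and 250 falls were smaller than 0.5. The median called rise was 0.59 and the median called fall was -0.46, beside a median standard error of 0.09 over all genes. The table gives no signal over background, so the difference of a gene of low control level was not checked against it. In each of the 912 called genes the 3 control arrays and the 3 TNF arrays did not overlap, which was also true of 26.5% of all genes. When any 1 of the 6 collagen arrays was left out, 436 of the 912 genes kept their call throughout, and the count fell to 601 without control array 2, 568 without control array 3, 589 without TNF array 1 and 568 without TNF array 2.

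**Figure D1:**
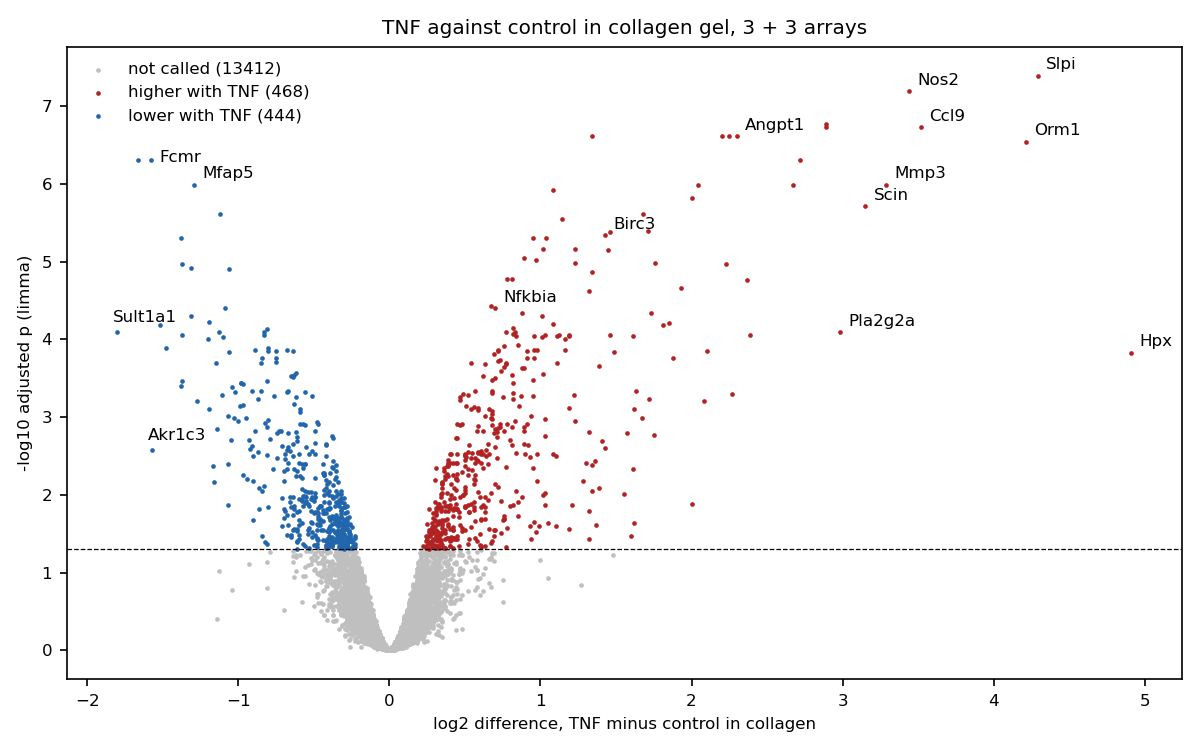
Log2 difference, TNF minus control in collagen (x axis), against -log10 of the limma adjusted p (y axis) for 14324 genes, with the 468 higher genes in red, the 444 lower genes in blue and a dashed line at an adjusted p of 0.05. Rises extend to 4.91 (Hpx) and falls to -1.80 (Sult1a1).

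Of the receptors of TNF 1 rose, by a small amount, and the largest rises of the list were those of Birc3 and Tnip1. Of 31 measured genes for TNF, its receptors and their proximal adaptors, 6 were higher and 1 was lower, with a median difference of 0.03 beside 0.00 over all genes. Tnfrsf1a, the ubiquitous receptor, differed by 0.09 ± 0.07 (adjusted p = 0.58). Tnfrsf1b, the inducible receptor, rose by 0.47 ± 0.11 (adjusted p = 0.0241), a call that was lost without control array 2 or 3 or TNF array 1 or 3. Tnf mRNA itself was 6.17, 6.52 and 6.75 on the control arrays and 6.82, 6.32 and 6.76 on the TNF arrays, overlapping ranges that differed by 0.15 ± 0.16 (adjusted p = 0.686). Birc3 encodes cIAP2, a ubiquitin ligase recruited to the receptor complex. Its level was 6.51, 6.50 and 6.07 in the control arrays and 7.88, 7.75 and 7.75 in the TNF arrays, a rise of 1.43 ± 0.11 (adjusted p = 4.52e-06) with no overlap. Tnip1, which binds the deubiquitinase A20 and restrains NF-kB, read 7.62, 7.60 and 7.63 without TNF and 8.62, 8.49 and 8.61 with it, a rise of 0.95 ± 0.07, again with wide separation of the groups. Adam17, the sheddase that releases TNF and its receptors, rose by 0.34 ± 0.07, whereas Timp3, its natural inhibitor, fell by 0.87 ± 0.15. The count of higher genes in this list was 3 without control array 3 or TNF array 1.

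Among 16 measured NF-kB subunits, inhibitors and kinases, 8 were higher and 2 were lower, with a median of 0.23. The largest rises were those of Nfkbie and Nfkbia. Nfkbie, the inhibitor IkB-epsilon, was 7.90, 7.90 and 7.86 on the control arrays and 8.78, 8.71 and 8.82 on the TNF arrays, a rise of 0.88 ± 0.08 (adjusted p = 4.52e-05). Nfkbia, the inhibitor IkB-alpha, was 10.07, 9.98 and 10.03 without TNF and 10.70, 10.70 and 10.78 with TNF, a rise of 0.70 ± 0.07 (adjusted p = 3.96e-05). In both genes every TNF array lay above every control array by more than the range of either group. Nfkb2 rose by 0.67 ± 0.06, Nfkb1 by 0.36 ± 0.07 and the inhibitor Nfkbib by 0.45 ± 0.08, while Rela, a transactivating subunit, differed by 0.13 ± 0.07 and the kinase Ikbkb by -0.03 ± 0.06, neither of them called. Pdlim2, a nuclear ubiquitin ligase that ends RelA activity, fell by 0.63 ± 0.09 (adjusted p = 0.00067). The count of higher genes was 5 without control array 1, 2 or 3 or TNF array 1, and the other lower gene, Commd1, kept its call without control array 3 and lost it without each of the other 5 arrays.

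Promoters of genes that rose together are printed here to show the letters that NF-kB and interferon-regulated factors are known to bind. The 6 genes were chosen after the motif search, as called genes that carry a match. Each line gives the 250 bases before the RefSeq start site of the GRCr8 assembly, 5′ to 3′ on the gene's strand, in lower case with the matches in capitals. In Nfkbia, Cxcl1, Il6 and Ccl20 the capitals mark the kappaB motif (GGG, any 2 bases, TTTCC), in Bst2 the interferon-stimulated response element (ISRE) motif (TTTC, any 2 bases, TTTC), and in Tap1 both, all read on either strand. Nfkbia lies at chr6:78597073-78597322 on the minus strand, Cxcl1 at chr14:17479322-17479571 on the minus strand, Il6 at chr4:5894576-5894825 on the minus strand, Ccl20 at chr9:91836909-91837158 on the plus strand, Tap1 at chr20:4668544-4668793 on the minus strand and Bst2 at chr16:18254968-18255217 on the minus strand.
Nfkbia: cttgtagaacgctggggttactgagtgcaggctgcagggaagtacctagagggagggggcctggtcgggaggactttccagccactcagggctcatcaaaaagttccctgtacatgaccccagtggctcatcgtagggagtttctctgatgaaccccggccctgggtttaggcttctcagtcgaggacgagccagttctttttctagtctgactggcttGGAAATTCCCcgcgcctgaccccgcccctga
Cxcl1: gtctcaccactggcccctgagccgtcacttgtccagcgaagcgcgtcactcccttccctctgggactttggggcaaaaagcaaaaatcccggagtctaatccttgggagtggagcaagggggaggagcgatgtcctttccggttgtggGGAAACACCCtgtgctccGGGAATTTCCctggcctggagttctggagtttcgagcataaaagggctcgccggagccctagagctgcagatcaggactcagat
Il6: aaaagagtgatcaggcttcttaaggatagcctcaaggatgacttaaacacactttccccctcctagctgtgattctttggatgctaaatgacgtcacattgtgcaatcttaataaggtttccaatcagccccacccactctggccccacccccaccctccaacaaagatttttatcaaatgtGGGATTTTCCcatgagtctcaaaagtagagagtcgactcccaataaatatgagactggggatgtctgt
Ccl20: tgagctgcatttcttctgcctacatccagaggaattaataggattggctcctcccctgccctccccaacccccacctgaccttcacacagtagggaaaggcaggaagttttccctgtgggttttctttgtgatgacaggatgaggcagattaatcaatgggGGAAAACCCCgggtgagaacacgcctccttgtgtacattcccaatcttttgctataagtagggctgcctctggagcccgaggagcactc
Tap1: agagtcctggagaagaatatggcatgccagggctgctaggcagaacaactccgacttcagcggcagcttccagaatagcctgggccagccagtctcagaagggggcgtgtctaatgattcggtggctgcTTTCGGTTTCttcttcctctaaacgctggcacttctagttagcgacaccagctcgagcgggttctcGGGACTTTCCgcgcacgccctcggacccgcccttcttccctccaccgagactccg
Bst2: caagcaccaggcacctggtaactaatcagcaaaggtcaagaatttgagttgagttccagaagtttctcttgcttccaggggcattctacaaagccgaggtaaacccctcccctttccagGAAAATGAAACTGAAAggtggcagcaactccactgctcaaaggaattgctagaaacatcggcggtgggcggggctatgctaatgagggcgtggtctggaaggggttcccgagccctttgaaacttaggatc

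The kappaB match of Nfkbia began 31 bases before the start site, that of Il6 68 bases before and that of Ccl20 89 bases before. Cxcl1 held a pair of matches, on opposite strands, at 102 and 84 bases before its start. Tap1, a peptide transporter of antigen presentation, held an ISRE match 121 bases and a kappaB match 55 bases before the start, and Bst2, the antiviral tetherin, held overlapping ISRE matches at 131 and 125 bases.

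Across 11805 measured genes with a promoter in the RefSeq table, searched from 250 bases before to 50 after the start, 1.71% held the kappaB motif. The share was 6.13% of the 375 promoters of higher genes, 1.12% of the 356 promoters of lower genes and 14.0% of the 50 largest rises. ISRE matches were in 3.41% of all promoters, 8.53% of those of higher genes and 2.53% of those of lower genes. The AP-1 motif TGANTCA (TRE) stood in 6.23%, 10.9% and 3.65% of these promoters, and the C/EBP motif TTNNGCAA in 10.0%, 14.7% and 8.99%. For the STAT motif TTCNNNGAA (GAS) the shares were 7.61%, 8.27% and 4.78%, and for the CArG box of serum response factor they were 1.28%, 1.33% and 1.12%. By list, kappaB matches were in 46.2% of 13 promoters of NF-kB genes and ISRE matches in 61.3% of 31 promoters of interferon-response genes. Among 29 promoters of antigen-presentation genes, 34.5% held an ISRE match and 17.2% a kappaB match. Among 21 promoters of smooth muscle markers, 0.0% held a kappaB match, 4.76% an ISRE match, 19.0% a TRE match and 4.76% a CArG match. These list shares count called and uncalled members alike, so they do not describe the genes that moved. The motifs can share letters with one another, and a match describes the letters and shows no binding.

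**Figure D2:**
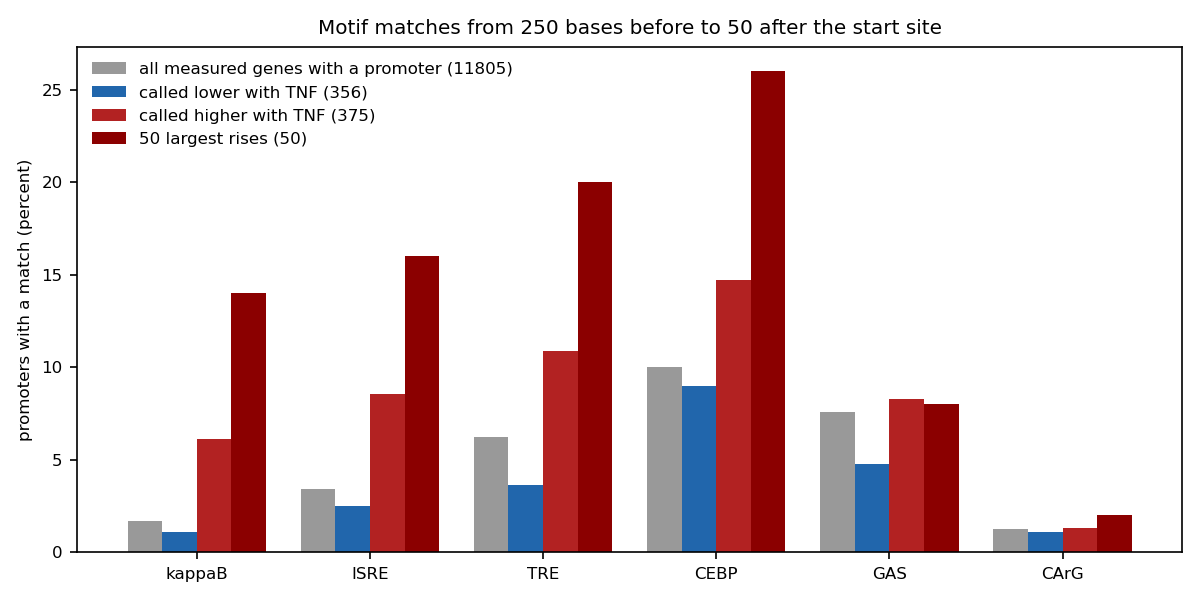
Percent of promoters (y axis) with at least 1 match to each motif (x axis), for all measured genes, genes lower with TNF, genes higher with TNF and the 50 largest rises. The kappaB, ISRE, TRE and C/EBP bars are taller in both red sets than in the grey set, with 14.0% against 1.71% for kappaB in the 50 largest rises, while the GAS and CArG bars of the higher genes lie near those of all genes.

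Of 37 immediate-early genes, AP-1 subunits and MAP kinase feedback genes, 6 were higher and 1 was lower, with a median of 0.07. Dusp10, a phosphatase of p38 and JNK, was 9.45, 9.07 and 9.42 on the control arrays and 8.71, 8.31 and 8.70 on the TNF arrays, a fall of 0.74 ± 0.13 (adjusted p = 0.0034). Ier3, an early NF-kB target that limits ERK dephosphorylation, was 10.29, 10.38 and 10.07 without TNF and 10.79, 10.97 and 11.02 with it, a rise of 0.68 ± 0.10 (adjusted p = 0.00127). The ranges of both genes stayed apart. Socs3, the inhibitor of IL-6 family receptors, rose by 0.65 ± 0.11, the phosphatase Dusp1 by 0.44 ± 0.08 and the kinase Mapkapk2 by 0.35 ± 0.07. Junb, an AP-1 subunit, differed by 0.24 ± 0.11 and Gadd45a, a stress-response gene, by -0.16 ± 0.09, neither called.

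The CC chemokines, which draw mainly monocytes, lymphocytes and dendritic cells, had the highest median difference of the lists described, at 0.95. Of 18 measured, 9 were higher and 0 were lower. Ccl9, a monocyte chemoattractant, was 5.48, 5.42 and 4.94 on the control arrays and 8.85, 8.57 and 8.97 on the TNF arrays, an 11.4-fold rise (log2 3.52 ± 0.17, adjusted p = 1.87e-07). Ccl19, the ligand of CCR7 on dendritic cells and naive T cells, went from 6.36, 6.52 and 6.73 to 9.53, 9.32 and 9.43, a 7.4-fold rise (log2 2.89 ± 0.14, adjusted p = 1.87e-07). For both, the lowest TNF array stood more than 2 log2 units above the highest control array. The monocyte chemoattractants Ccl7, at 8.83, 8.70 and 8.14 without and 11.38, 11.03 and 11.28 with TNF, and Ccl12, at 6.45, 6.88 and 6.35 without and 9.02, 8.46 and 9.30 with TNF, rose by 2.67 ± 0.17 and 2.37 ± 0.21. Ccl2, the main CCR2 ligand, rose by 1.85 ± 0.18, Ccl20, the CCR6 ligand, by 2.10 ± 0.24, and Ccl21, the other CCR7 ligand, by 1.41 ± 0.23. Ccl6 and Ccl3, made mainly by myeloid cells, rose by 1.30 ± 0.23 and 1.23 ± 0.18. Ccl5, which draws T cells, differed by 0.59 ± 0.20 (adjusted p = 0.12) and was not called. Ccl4, a related ligand, differed by 0.67 ± 0.20 (adjusted p = 0.0662, and 0.0445 with the replicate number as a block).

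Of 16 CXC, CX3C and XC chemokines 7 were higher and 1 was lower, with a median of 0.28. The CXCR3 ligand Cxcl11, induced by interferon-gamma, was 3.61, 4.34 and 4.48 on the control arrays and 6.91, 6.41 and 5.92 on the TNF arrays, a rise of 2.27 ± 0.30 (adjusted p = 0.000503), with the groups far apart although each spread widely. Cxcl6, a neutrophil chemoattractant, was 4.71, 4.23 and 4.57 without TNF and 6.87, 6.30 and 6.35 with TNF, a rise of 2.00 ± 0.42 (adjusted p = 0.013) that lost its call without control array 2 or TNF array 1. The neutrophil attractant Cxcl1 rose by 1.81 ± 0.18 and the B-cell attractant Cxcl13 by 1.93 ± 0.17. Cxcl10, another CXCR3 ligand, rose by 1.39 ± 0.27 and Cxcl16, a membrane-bound ligand of CXCR6, by 1.08 ± 0.07. Cxcl12, the constitutive stromal chemokine, fell by 0.71 ± 0.15 (adjusted p = 0.0111), a call lost without TNF array 2. The endothelial chemokine Cx3cl1 differed by -0.12 ± 0.10 and Cxcl2 by 0.23 ± 0.19, not called. Among 19 chemokine receptors 0 were higher and 1 was lower in the limma fit, 5.26% called beside 6.37% of all genes. Of these receptors 4 had an unadjusted p below 0.05, beside 2664 of the 14324 genes tested. The lower receptor was Ccr1 at -0.60 ± 0.15, a call lost without control array 2 or 3 or TNF array 2 or 3. With the replicate block 2 receptors were lower.

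Interleukins and colony-stimulating factors rose in 8 of 34 measured genes, with 0 lower and a median of 0.15. Il1a, the alarmin interleukin-1 alpha, was 3.84, 4.35 and 3.62 on the control arrays and 6.03, 5.46 and 5.95 on the TNF arrays, a rise of 1.88 ± 0.22 (adjusted p = 0.000173). Il6, the cytokine that drives acute-phase synthesis, was 6.39, 6.07 and 5.59 on control and 7.53, 7.92 and 7.76 on TNF arrays, a rise of 1.72 ± 0.23 (adjusted p = 0.000579). Each of these cytokines was separated between the groups by over 1 log2 unit. Il1b rose by 0.98 ± 0.19, the IL-6 family member Lif by 0.93 ± 0.16, the macrophage growth factor Il34 by 0.91 ± 0.10, the lymphocyte growth factor Il7 by 0.56 ± 0.10 and the interleukin-18 decoy Il18bp by 1.19 ± 0.13. Csf1, the main macrophage growth factor, differed by -0.04 ± 0.08 and was not called.

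Cytokine receptors rose in 9 of 30 measured genes and fell in 1, with a median of 0.14. Without control array 3 the higher count was 5. Il2rg, the gamma chain shared by several interleukin receptors, was 5.59, 5.40 and 5.26 in control and 7.09, 7.20 and 6.99 in TNF arrays, a rise of 1.68 ± 0.12 (adjusted p = 2.43e-06). Il7r, which pairs with it, was 4.82, 5.17 and 5.17 without TNF and 6.53, 6.08 and 6.13 with TNF, a rise of 1.19 ± 0.17 (adjusted p = 0.000755). Both were apart on all arrays. Ifngr1 rose by 0.52 ± 0.07, Ifnar1 by 0.38 ± 0.08 and Osmr, the oncostatin M receptor, by 0.37 ± 0.07, and Kit, the stem cell factor receptor, fell by 0.68 ± 0.12. In the wider TNF superfamily 2 of 24 genes were higher and 2 were lower, 16.7% called beside 6.37% of all genes. With the replicate block 3 were higher. Tnfrsf21 (death receptor 6) was 8.08, 8.05 and 7.87 in control and 8.78, 9.19 and 8.70 in TNF arrays, with a rise of 0.89 ± 0.14, and Tnfrsf9 (4-1BB) read 6.19, 6.55 and 6.50 and 7.60, 7.48 and 7.26, with a rise of 1.03 ± 0.22 that was not called without control array 1 or TNF array 1. Tnfrsf11b, the osteoprotegerin decoy, fell by 0.81 ± 0.10. The ligand Tnfsf13b was lower at -0.35 ± 0.08, a call kept without control array 2 and lost without each of the other 5 arrays, and Ltbr, the lymphotoxin receptor, differed by 0.02 ± 0.07.

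Leukocyte adhesion genes were higher in 6 of 21 and lower in 1, with a median of 0.20. Icam1, a ligand of leukocyte beta-2 integrins, was 10.03, 10.15 and 10.19 on control and 10.96, 10.83 and 11.02 on TNF arrays, a rise of 0.82 ± 0.08 (adjusted p = 7.2e-05). Vcam1, the ligand of integrin alpha-4 beta-1, was 11.60, 11.72 and 11.75 in control and 12.17, 12.33 and 12.28 in TNF arrays, a rise of 0.57 ± 0.07 (adjusted p = 0.000456). Both sets of arrays were separated by more than the spread within a group. Itgam, the leukocyte integrin alpha-M, rose by 0.50 ± 0.10 and the hyaluronan receptor Cd44 by 0.38 ± 0.07. The lower gene was Itga4 at -0.57 ± 0.15, whose call held without control array 1 and was lost without each of the other 5 arrays.

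Acute-phase proteins and antiproteases held the 3 largest rises of all genes. Of 33 measured, 9 were higher and 0 lower, with a median of 0.10, and with the replicate block 1 was lower. Hpx, the plasma haem scavenger hemopexin, was 6.48, 6.28 and 5.45 on the control arrays and 11.56, 11.28 and 10.12 on the TNF arrays, a 30.2-fold rise (log2 4.91 ± 0.56, adjusted p = 0.000148). In each group array 3 was the lowest, by about 1 log2 unit. Slpi, an inhibitor of neutrophil elastase, was 6.50, 6.31 and 6.50 without TNF and 10.62, 10.66 and 10.90 with TNF, a 19.6-fold rise (log2 4.29 ± 0.16), and its arrays lay close together within each group. Orm1, the acute-phase orosomucoid, was 5.20, 4.96 and 4.92 in control and 9.60, 9.18 and 8.91 in TNF arrays, an 18.5-fold rise. Ptx3, a long pentraxin made in vessel walls, rose by 2.20 ± 0.12, haptoglobin (Hp) by 1.46 ± 0.15, lipocalin-2 (Lcn2) by 1.32 ± 0.20, the iron hormone Hamp by 1.02 ± 0.12, the chitinase-like Chi3l1 by 0.91 ± 0.11 and the serpin Serpina3n by 0.48 ± 0.07. Lbp, the lipopolysaccharide-binding protein, differed by -0.02 ± 0.06 and Serping1, the C1 inhibitor, by 0.16 ± 0.08, not called.

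Complement genes were higher in 3 of 26 and lower in 2, with a median of 0.08. With replicate number as a block the higher count was 5. C3, the hub of the cascade, was 6.52, 6.78 and 6.63 on the control arrays and 8.56, 8.19 and 8.38 on the TNF arrays, a rise of 1.73 ± 0.17 (adjusted p = 4.51e-05). C7, of the membrane attack complex, was 9.96, 10.00 and 9.89 without TNF and 9.17, 9.09 and 9.21 with it, a fall of 0.80 ± 0.09 (adjusted p = 0.00014). Each moved in all 3 arrays. Masp1, a lectin-pathway protease, rose by 0.75 ± 0.10. The protease C1r and clusterin (Clu) differed by 0.19 ± 0.06 and -0.17 ± 0.06 and were not called. The other lower member, the ficolin Fcna at -0.39 ± 0.09, lost its call without control array 1 or TNF array 1 or 2.

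Pattern-recognition receptors and their adaptors were higher in 7 of 23 and lower in 1, with a median of 0.16. The higher count was 3 without control array 2 or TNF array 1, and 4 without TNF array 3. Clec4d, a C-type lectin of myeloid cells, was 7.45, 6.47 and 6.15 on control and 8.48, 8.01 and 8.24 on TNF arrays, a rise of 1.55 ± 0.31 (adjusted p = 0.00987). Its partner Clec4e (Mincle) was 5.57, 5.58 and 5.13 in control and 6.48, 6.10 and 6.22 in TNF arrays, a rise of 0.84 ± 0.17 (adjusted p = 0.00887). Control array 1 was the highest control array for Clec4d, and the groups of both genes were apart. Cd14, the lipopolysaccharide co-receptor, rose by 0.55 ± 0.10. The adaptor Myd88 differed by 0.03 ± 0.06 and Tlr4 by -0.18 ± 0.08, not called. The lower gene was the inflammasome adaptor Pycard at -0.51 ± 0.12, whose call held without control array 3 or TNF array 3 and was lost without each of the other 4 arrays and with the replicate block.

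Interferon-response genes were higher in 21 of 42 and lower in 0, with a median of 0.48. This count leaned on single arrays: it was 10 without control array 3, 7 without TNF array 1 and 10 without TNF array 3. Mx1, a dynamin-like antiviral GTPase, was 6.51, 6.77 and 5.58 on the control arrays and 8.41, 7.76 and 7.94 on the TNF arrays, a rise of 1.75 ± 0.27 (adjusted p = 0.00169). Ifit3, which binds viral RNA, was 7.51, 7.58 and 5.83 in control and 9.04, 8.17 and 8.55 in TNF arrays, a rise of 1.62 ± 0.38 (adjusted p = 0.0233) that lost its call without TNF array 1 or 3. For both genes control array 3 was the lowest and TNF array 1 the highest. Genes that kept their call with any 1 array left out were Rsad2 (viperin), up 1.34 ± 0.27, the interferon regulator Irf7, up 1.34 ± 0.24, the RNA-helicase regulator Dhx58, up 0.98 ± 0.16, and Bst2, up 0.96 ± 0.11. Irf9, a subunit of the factor that binds ISREs, differed by 0.32 ± 0.09 (adjusted p = 0.0562, and 0.0317 with the replicate block), and Gbp2, a guanylate-binding protein, by 0.44 ± 0.13 (adjusted p = 0.0723). Mx and Oas genes have near-identical copies in the rat, and probes for one may read another.

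Antigen processing and presentation genes were higher in 8 of 33 and lower in 0, with a median of 0.14. The count was 5 without control array 3, TNF array 1 or TNF array 3. Psmb9, a catalytic subunit of the immunoproteasome, was 9.25, 9.07 and 9.02 on control and 10.05, 9.88 and 9.96 on TNF arrays, a rise of 0.85 ± 0.09 (adjusted p = 0.000118). RT1-S3, a class Ib MHC gene of a family of close copies, was 8.95, 9.15 and 8.68 without TNF and 9.92, 9.59 and 9.71 with TNF, a rise of 0.81 ± 0.12 (adjusted p = 0.00132). No control array reached the level of a TNF array in either gene. The immunoproteasome subunit Psmb10 rose by 0.72 ± 0.08 and the peptide transporter Tap1 by 0.63 ± 0.07. B2m, the MHC class I light chain, differed by 0.22 ± 0.07 (adjusted p = 0.0732), and the chaperones Canx and Calr differed by 0.01 ± 0.06 and 0.00 ± 0.06.

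Nitric oxide is made from arginine by the nitric oxide synthases, and in this set 3 of 21 genes were higher and 4 lower, with a median of 0.12. Nos2, the inducible synthase, was 4.94, 4.67 and 5.13 on the control arrays and 8.16, 8.30 and 8.61 on the TNF arrays, a 10.9-fold rise (log2 3.44 ± 0.14, adjusted p = 6.34e-08). Ass1, which rebuilds arginine from citrulline, was 6.30, 5.84 and 6.07 in control and 7.70, 7.65 and 8.13 in TNF arrays, a rise of 1.76 ± 0.14 (adjusted p = 1.04e-05). The separation was over 1 log2 unit in each. Gch1, which makes the synthase cofactor tetrahydrobiopterin, rose by 0.63 ± 0.14, called except without control array 3, TNF array 2 or TNF array 3. On the receiving side, Gucy1a1, a subunit of the nitric oxide receptor of smooth muscle, fell by 1.11 ± 0.15 (adjusted p = 0.000519). Nos3, the endothelial synthase, differed by 0.14 ± 0.11 and was not called. The lower count was 2 without control array 2 or TNF array 2.

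Prostaglandin and leukotriene genes were higher in 5 of 27 and lower in 2, with a median of 0.04. Pla2g2a, a secreted phospholipase A2, was 4.33, 5.41 and 4.68 on control and 7.46, 7.86 and 8.06 on TNF arrays, a 7.91-fold rise (log2 2.98 ± 0.31, adjusted p = 8.09e-05), with control array 2 the highest of its group. Ptges, the inducible prostaglandin E synthase, was 7.30, 7.56 and 7.81 without TNF and 9.57, 9.40 and 9.83 with TNF, a rise of 2.04 ± 0.13 (adjusted p = 1.02e-06). Hpgds, which makes prostaglandin D2, went the other way, from 6.63, 7.01 and 7.16 to 5.53, 5.48 and 5.66, a fall of 1.37 ± 0.17 (adjusted p = 0.000347). In all of these the groups were apart. Pla2g7, which degrades platelet-activating factor, rose by 0.84 ± 0.14 and the prostacyclin receptor Ptgir by 0.57 ± 0.11. Ptgs2, the inducible cyclooxygenase, rose by 0.63 ± 0.17 (adjusted p = 0.0458), a call kept without TNF array 1 and lost without each of the other 5 arrays, and the prostacyclin synthase Ptgis differed by 0.09 ± 0.12. The other lower gene was the receptor Ptger4 at -0.49 ± 0.11, lost without TNF array 2 or 3.

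Redox genes moved both ways, with 8 of 40 higher and 3 lower and a median of 0.01. Without control array 3 the higher count was 5. Nox4, the constitutive NADPH oxidase of the vessel wall, was 7.46, 7.42 and 7.62 on control and 6.30, 6.08 and 6.19 on TNF arrays, a fall of 1.31 ± 0.11 (adjusted p = 1.22e-05). Gpx3, the secreted glutathione peroxidase, was 11.48, 11.48 and 11.54 without TNF and 10.41, 10.32 and 10.61 with it, a fall of 1.06 ± 0.12 (adjusted p = 0.000144). Both lost over 1 log2 unit in mean level with narrow spread. Cybb, the catalytic subunit of the phagocyte oxidase, rose by 0.84 ± 0.09, the mitochondrial superoxide dismutase Sod2 by 0.72 ± 0.08, the extracellular Sod3 by 0.87 ± 0.12, the cystine importer Slc7a11 by 0.68 ± 0.09 and the microsomal transferase Mgst1 by 0.57 ± 0.10. Hmox1, haem oxygenase 1, differed by 0.23 ± 0.15 and Txn1, thioredoxin, by 0.00 ± 0.07, neither called.

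Metallothioneins, ferritins and metal transporters were higher in 5 of 17 and lower in 0, with a median of 0.16, and with the replicate block 1 was lower. Mt1, which binds zinc and copper, was 12.63, 12.49 and 12.60 on control and 13.45, 13.30 and 13.40 on TNF arrays, a rise of 0.81 ± 0.07 (adjusted p = 1.67e-05). The zinc importer Slc39a10 was 8.51, 8.48 and 8.63 in control and 9.06, 9.06 and 9.17 in TNF arrays, a rise of 0.56 ± 0.08 (adjusted p = 0.000748). These shifts were small, but each exceeded the range within either group. Mt2A rose by 0.47 ± 0.06 and Slc39a14, a zinc and iron importer of the acute-phase response, by 0.51 ± 0.07. Ftl1, the ferritin light chain, differed by -0.02 ± 0.06.

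Of 22 matrix metalloproteinases and their inhibitors 4 were higher and 3 were lower, with a median of 0.03. Mmp3, stromelysin 1, was 8.37, 8.27 and 7.97 on the control arrays and 11.49, 11.51 and 11.49 on the TNF arrays, a 9.81-fold rise (log2 3.29 ± 0.20, adjusted p = 1.02e-06). Mmp9, gelatinase B, was 5.74, 5.98 and 5.58 without TNF and 7.93, 7.96 and 8.11 with TNF, a rise of 2.23 ± 0.18 (adjusted p = 1.07e-05). The 3 TNF arrays of Mmp3 were almost identical, and the ranges of both genes were far apart. Mmp13, a collagenase, rose by 2.08 ± 0.28 and the inhibitor Timp1 by 1.02 ± 0.08, while Timp4 fell by 0.90 ± 0.15 and Mmp11 by 0.57 ± 0.10. Mmp2, gelatinase A, differed by 0.17 ± 0.06 (adjusted p = 0.156) and Mmp14, the membrane-bound activator of Mmp2, by 0.19 ± 0.06 (adjusted p = 0.098).

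Of 18 ADAM and ADAMTS proteases 5 were higher and 0 lower, with a median of 0.10. The lower count was 2 without control array 1, and 1 with a trended and robust prior, with array weights or without the dimmest genes. Adamts4, an aggrecanase and versicanase, was 8.33, 8.03 and 7.88 in control and 9.44, 9.70 and 9.45 in TNF arrays, a rise of 1.45 ± 0.11 (adjusted p = 7.05e-06). Adamts7, which cleaves cartilage oligomeric matrix protein, was 8.10, 8.02 and 8.11 in control and 9.21, 9.16 and 9.28 in TNF arrays, a rise of 1.14 ± 0.08 (adjusted p = 2.81e-06). Arrays within a group differed far less than the groups did. Adamts5, the other main aggrecanase, rose by 0.55 ± 0.09, and Adamts1, an anti-angiogenic protease, differed by 0.36 ± 0.13 (adjusted p = 0.141, and 0.0314 with the replicate block).

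In the plasminogen and clotting systems 4 of 27 genes were higher and 3 lower, with a median of 0.13. Tfpi2, a matrix-bound inhibitor of plasmin and tissue factor, was 7.83, 7.12 and 7.24 on control and 9.01, 8.78 and 8.70 on TNF arrays, a rise of 1.43 ± 0.24 (adjusted p = 0.00247). F13a1, the fibrin-crosslinking transglutaminase, which is also a marker of resident macrophages, was 9.04, 8.59 and 8.85 without TNF and 7.74, 7.49 and 8.09 with TNF, a fall of 1.05 ± 0.17 (adjusted p = 0.00197). The gap between groups was about as wide as the range within them for both. Tissue plasminogen activator (Plat) rose by 0.70 ± 0.11, its inhibitor Serpine2 by 0.49 ± 0.06 and factor X (F10) by 0.71 ± 0.11. Tissue factor (F3) fell by 0.49 ± 0.10 and factor V (F5) by 0.84 ± 0.17. Urokinase (Plau) differed by 0.42 ± 0.15 (adjusted p = 0.123).

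Genes of angiopoietin, VEGF and sprouting signals were higher in 7 of 35 and lower in 1, with a median of 0.07, and the higher count was 4 without control array 2 or 3 or TNF array 1 or 2. Angpt1, the agonist of the endothelial receptor Tie2, was 6.14, 6.20 and 6.33 on control and 8.45, 8.32 and 8.80 on TNF arrays, a 4.93-fold rise (log2 2.30 ± 0.12, adjusted p = 2.44e-07). Adm, the vasodilator peptide adrenomedullin, was 7.61, 8.29 and 8.02 in control and 9.17, 9.49 and 9.71 in TNF arrays, a rise of 1.49 ± 0.17 (adjusted p = 0.000146). Both groups of arrays were apart, those of Adm with the wider spread. The semaphorin and VEGF co-receptor Nrp2 rose by 0.65 ± 0.10 and the tip-cell peptide Apln by 0.61 ± 0.10. Vegfa differed by 0.51 ± 0.15 (adjusted p = 0.0741, and 0.0408 with the replicate block). The receptors Tek (Tie2) and Tie1 differed by -0.24 ± 0.15 and 0.07 ± 0.11 and were not called. Vegfc, the lymphatic growth factor, was higher by 0.28 ± 0.07, a call kept without TNF array 3 and lost without each of the other 5 collagen arrays. The lower member was Pgf at -0.31 ± 0.08, whose call held without control array 2 and was lost without each of the other 5 and under both other scalings, and with the replicate block 2 members were lower.

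Growth factors, their receptors and binding proteins were higher in 5 of 45 and lower in 7, with a median of 0.03. Without control array 1 the higher count was 8. Hgf, the scatter factor of stromal cells, was 9.32, 9.34 and 8.98 on control and 10.76, 10.78 and 10.29 on TNF arrays, a rise of 1.39 ± 0.17 (adjusted p = 0.000222). Igf1, insulin-like growth factor 1, went from 10.21, 9.88 and 10.04 to 8.71, 8.64 and 8.87, a fall of 1.31 ± 0.13 (adjusted p = 4.93e-05). These changes ran in opposite directions and each left a gap between the groups. Among IGF binding proteins Igfbp5 rose by 0.92 ± 0.15 while Igfbp4 and Igfbp6 fell by 0.89 ± 0.14 and 0.93 ± 0.15. The heparin-binding factor Ptn rose by 0.95 ± 0.17 and the PDGF receptor Pdgfra by 0.68 ± 0.10. The matricellular Ccn3 fell by 0.80 ± 0.09 and the stress cytokine Gdf15 by 0.69 ± 0.12, and Ccn2 differed by 0.05 ± 0.08.

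In TGF-beta and BMP signalling 4 of 41 genes were higher and 3 were lower, with a median of 0.01. Fst, follistatin, which traps activin, was 6.63, 6.47 and 6.27 on control and 9.31, 8.91 and 9.32 on TNF arrays, a 6.6-fold rise (log2 2.72 ± 0.16, adjusted p = 4.88e-07). Id1, a direct BMP target, was 8.68, 8.48 and 8.50 without TNF and 9.26, 9.52 and 9.34 with TNF, a rise of 0.82 ± 0.11 (adjusted p = 0.000493). The separation of Fst was over 2 log2 units. Bmp2 rose by 0.78 ± 0.12, and Tgfb1, the abundant ligand, differed by 0.10 ± 0.07. The lower calls were Tgfb3 at -0.61 ± 0.15, lost when any 1 of the 6 arrays was left out, Bmp6 at -0.53 ± 0.11, lost without control array 1 or TNF array 3, and Bmp4 at -0.50 ± 0.10, lost without TNF array 3.

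Wnt genes were higher in 2 of 35 and lower in 3, 14.3% called beside 6.37% of all genes, with a median of 0.07. Sfrp4, a secreted Wnt antagonist, was 9.25, 8.66 and 8.76 in control and 7.94, 7.53 and 7.63 in TNF arrays, a fall of 1.19 ± 0.17 (adjusted p = 0.000791). Rspo3, which amplifies Wnt signals, was 8.20, 8.54 and 8.34 in control and 9.11, 9.40 and 9.24 in TNF arrays, a rise of 0.89 ± 0.14 (adjusted p = 0.00151). The antagonist-like Dkk3 fell by 0.76 ± 0.10 and the receptor Fzd8 by 0.55 ± 0.09, and Fzd1 rose by 0.57 ± 0.10. In the Notch list 2 of 20 genes were higher and 0 lower, 10.0% called beside 6.37% of all genes, with a median of 0.08. Of the higher genes Hes1, a Notch target also induced by other signals, was 8.04, 8.10 and 7.90 without TNF and 8.40, 8.50 and 8.49 with TNF, a rise of 0.45 ± 0.07. The other, the ligand Jag2 at 0.37 ± 0.09, kept its call without control array 2 and lost it without each of the other 5 arrays, and Jag1 differed by 0.13 ± 0.09.

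Among fibrillar collagens and the enzymes that process them 1 of 27 genes was higher and 1 lower, 7.41% called beside 6.37% of all genes. The median was -0.05, and the lower count was 2 without control array 1. Col14a1, a collagen on fibril surfaces, was 9.92, 10.00 and 10.17 on control and 8.83, 8.76 and 8.92 on TNF arrays, a fall of 1.19 ± 0.12 (adjusted p = 5.97e-05). Loxl4, a lysyl oxidase, was 7.10, 6.91 and 6.96 without TNF and 7.55, 7.43 and 7.57 with TNF, a rise of 0.52 ± 0.09 (adjusted p = 0.00279). The main fibril collagens Col1a1, Col1a2 and Col3a1 differed by -0.09 ± 0.13, -0.08 ± 0.09 and -0.30 ± 0.12, with Col3a1 alone called lower under the replicate block (adjusted p = 0.0285). Their chaperone Serpinh1 differed by -0.07 ± 0.06.

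Matrix glycoproteins and proteoglycans were higher in 4 of 30 and lower in 6, with a median of -0.07. Mfap5, a microfibril protein, was 8.99, 9.03 and 9.14 on control and 7.79, 7.75 and 7.75 on TNF arrays, a fall of 1.29 ± 0.08 (adjusted p = 1.02e-06). Fbln1, fibulin-1, was 10.43, 10.69 and 10.63 without TNF and 11.83, 11.70 and 11.30 with TNF, a rise of 1.03 ± 0.16 (adjusted p = 0.00175). The small leucine-rich proteoglycans Omd and Ogn fell by 0.95 ± 0.14 and 0.59 ± 0.08, and the hevin gene Sparcl1 by 0.63 ± 0.08. The elastic-fibre proteins Emilin1 and Efemp2 rose by 0.62 ± 0.10 and 0.39 ± 0.07. Fibronectin (Fn1), decorin (Dcn) and lumican (Lum) differed by -0.05 ± 0.12, -0.05 ± 0.06 and -0.03 ± 0.09. Of 12 basement membrane genes 2 were higher, 16.7% called beside 6.37% of all genes. Lamb3, a laminin-332 chain, was the higher gene whose call survived each left-out array, at 5.05, 5.11 and 5.25 in control and 6.12, 5.74 and 5.83 in TNF arrays, a rise of 0.76 ± 0.12. The other, Nid2 at 0.57 ± 0.14, was not called when any 1 of the 6 arrays was left out, nor with the replicate block.

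Integrins, the receptors through which cells hold collagen and other matrix, were higher in 3 of 13 and lower in 4, with a median of -0.04. Itga2, the alpha chain of the collagen receptor alpha-2 beta-1, was 8.08, 7.72 and 7.66 on control and 9.12, 9.17 and 9.13 on TNF arrays, a rise of 1.32 ± 0.12 (adjusted p = 2.41e-05). Itgb8, which activates latent TGF-beta, was 8.44, 8.65 and 8.54 without TNF and 9.54, 9.73 and 9.61 with TNF, a rise of 1.08 ± 0.11 (adjusted p = 6.38e-05). The fibronectin receptor chain Itga5 rose by 0.30 ± 0.06, and the integrin-like Itgbl1 fell by 0.91 ± 0.12. Itga1, another collagen-binding alpha chain, differed by 0.11 ± 0.08 and the shared partner Itgb1 by 0.03 ± 0.06. The lower count was 1 without control array 2, TNF array 1 or TNF array 2 and 2 without control array 3. Among 14 hyaluronan genes 3 were higher and 0 lower: Ptx3, Cd44 and the hyaluronidase Cemip2, up 0.37 ± 0.07. Without TNF array 1, or with the replicate block, 1 hyaluronan gene was lower. Ptx3, which crosslinks hyaluronan, read 8.31, 8.63 and 8.54 in control and 10.54, 10.66 and 10.91 in TNF arrays, and Cd44 read 10.07, 10.08 and 10.16 and 10.49, 10.39 and 10.56.

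Enzymes of drug, steroid and retinoid metabolism were higher in 6 and lower in 11 of 41, with a median of -0.19. Ces1f, a carboxylesterase, was 4.42, 4.37 and 4.71 on the control arrays and 7.34, 7.20 and 7.63 on the TNF arrays, a rise of 2.89 ± 0.14 (adjusted p = 1.68e-07). Cyp7b1, which hydroxylates oxysterols, was 4.65, 4.90 and 4.79 in control and 7.04, 6.96 and 7.09 in TNF arrays, a rise of 2.25 ± 0.12 (adjusted p = 2.44e-07). Cyp1b1, which oxidises oestrogens and aryl hydrocarbons, rose by 1.46 ± 0.11 and the carboxylesterase Ces1d by 0.98 ± 0.11. The sulfotransferase Sult1a1 had the largest fall of any gene, from 8.53, 9.22 and 9.09 on the control arrays to a mean of 7.15 ± 0.17 (SD, n = 3) and no value above 7.34 on the TNF arrays, a 3.48-fold change (log2 -1.80 ± 0.19, adjusted p = 8.09e-05).

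Among the falls were 4 aldo-keto reductases of the 1C family, which reduce steroids and prostaglandins. Akr1c15 was 8.17, 8.36 and 8.24 on control and 6.78, 6.37 and 6.64 on TNF arrays, a fall of 1.66 ± 0.10. Akr1c3 was 4.73, 5.93 and 5.87 without TNF and 4.02, 3.62 and 4.18 with TNF, a fall of 1.57 ± 0.26 (adjusted p = 0.00265), with control array 1 the lowest of its group. Akr1c19 went from 5.41, 5.75 and 5.53 to 4.19, 4.31 and 4.07, a fall of 1.37 ± 0.11, and Akr1c14 fell by 0.92 ± 0.15. These reductases and the Ces1 esterases are families of near-identical genes, so a probe set may read more than the gene it is named for. The retinol carrier Rbp4 fell by 1.07 ± 0.15. Xdh, xanthine dehydrogenase, and Maoa, monoamine oxidase A, differed by -0.20 ± 0.11 and 0.05 ± 0.07, not called. Aox3, an aldehyde oxidase outside the list, was 7.31, 7.38 and 7.49 in control and 6.29, 5.70 and 5.63 in TNF arrays, a fall of 1.52 ± 0.15 (adjusted p = 6.5e-05).

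Genes of hypoxia and glycolysis were higher in 12 of 37 and lower in 1, with a median of 0.20, and the higher count was 6 without control array 1, TNF array 2 or TNF array 3. The lower gene, the phosphofructokinase Pfkm at -0.35 ± 0.09, kept its call without control array 1 and lost it without each of the other 5 arrays. After Adm the largest rise was that of Ddit4, an inhibitor of mTORC1, at 8.33, 9.41 and 8.74 on control and 9.90, 10.42 and 10.22 on TNF arrays, a rise of 1.36 ± 0.24 (adjusted p = 0.00362). Control array 1 was its lowest array. The lactate transporters Slc16a3 and Slc16a1 rose by 1.01 ± 0.10 and 0.82 ± 0.09, the glucose transporter Slc2a1 by 0.49 ± 0.10 and Hif1a, the oxygen-regulated subunit, by 0.47 ± 0.06. The glycolytic enzymes Gapdh and Aldoa differed by 0.11 ± 0.06 and 0.10 ± 0.06 and were not called. Other glycolytic enzymes of the list were among its 12 higher genes. In cholesterol and fatty acid synthesis 2 of 26 genes were higher and 0 lower, 7.69% called beside 6.37% of all genes. Ch25h, which makes the antiviral 25-hydroxycholesterol, was 7.34, 7.45 and 7.74 in control and 8.79, 8.22 and 8.57 in TNF arrays, a rise of 1.02 ± 0.21. Abca1, the sterol exporter, was higher by 0.35 ± 0.08 and kept the call without TNF array 2 while losing it without each of the other 5 arrays.

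Lists of basic cell functions had 0 to 3 calls each, 0% to 6.38% of their measured members beside 6.37% of all genes. Over all genes, 2664 of 14324 had an unadjusted p below 0.05. Of 24 apoptosis and survival genes 0 were called in the limma fit, 7 had an unadjusted p below 0.05, and the median was 0.02. Without control array 3, 1 of them was called higher. The inhibitor of apoptosis Xiap differed by 0.08 ± 0.08 and the p53 antagonist Mdm2 by 0.03 ± 0.11. Of 39 subunits of mitochondrial oxidative phosphorylation 0 were called, 4 had an unadjusted p below 0.05, and the median was -0.02. With the replicate block 1 subunit was lower. Of 45 cell-cycle and replication genes 1 was called (with the replicate block 1 more, higher), the kinase inhibitor Cdkn2c, at 8.84, 8.97 and 8.94 on control and 8.54, 8.41 and 8.56 on TNF arrays, a fall of 0.42 ± 0.08 (adjusted p = 0.00815). Ccnd1, cyclin D1, differed by 0.21 ± 0.12 and Pcna, the replication clamp, by -0.04 ± 0.07. Of 47 ribosomal protein genes 3 were lower, by sizes up to 0.30 ± 0.08 for Rpl15, and 23 had an unadjusted p below 0.05, beside 2664 of the 14324 genes tested. The median was -0.14 in the list (-0.12 and -0.13 under the other scalings, with 0.00 and 0.01 over all genes), and its summed linear level was 242000 to 250000 on the control arrays and 224000 to 229000 on the TNF arrays, which did not overlap. The ribosomal count was 0 or 1 when any 1 collagen array was left out, 1 with the replicate block and 13 with a trended and robust prior.

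Markers of smooth muscle contraction were lower in 9 of 26 and higher in 0, with a median of -0.16. The lower count was 6 without control array 2 or TNF array 1 and 11 with the replicate block. Mustn1, a muscle nuclear protein, was 6.63, 7.23 and 7.28 on control and 5.83, 5.90 and 5.93 on TNF arrays, a fall of 1.16 ± 0.22 (adjusted p = 0.00691). Tagln, the actin-binding transgelin, was 8.85, 9.15 and 8.83 in control and 8.23, 8.23 and 7.88 in TNF arrays, a fall of 0.83 ± 0.16 (adjusted p = 0.00758). Neither gene's groups overlapped. Sgca, a sarcoglycan, fell by 0.74 ± 0.11, the calcium-binding Casq2 by 0.66 ± 0.14, the actin nucleator Lmod1 by 0.60 ± 0.11 and caldesmon (Cald1) by 0.37 ± 0.06. Myh11, the smooth muscle myosin heavy chain, differed by -0.43 ± 0.12 (adjusted p = 0.0624, and 0.0187 with the replicate block), and Mylk, the myosin light chain kinase, by 0.02 ± 0.09. The summed linear level of the list, over its measured markers, was 11600 to 13200 on the control arrays and 10100 to 10700 on the TNF arrays.

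Fibroblast markers were lower in 12 of 25 and higher in 3, with a median of -0.27. The lower count was 8 without TNF array 2 and 10 with the replicate block. Besides Mfap5 and Col14a1, the globin Cygb fell by 0.97 ± 0.13, dermatopontin (Dpt) by 0.83 ± 0.08, endosialin (Cd248) by 0.80 ± 0.12 and the ferritin receptor Scara5 by 0.63 ± 0.11, whereas Pdgfra and Fbln1 rose as above. Dcn and Lum differed by -0.05 ± 0.06 and -0.03 ± 0.09, not called. Its summed level was 42200 to 44500 on the control arrays and 39000 to 40800 on the TNF arrays. The 13 pericyte markers had a positive median of 0.21, and 8 had an unadjusted p below 0.05, beside 2664 of the 14324 genes tested. Of them 0 were called higher and 2 lower, Des at 8.89, 9.30 and 9.10 in control and 8.46, 8.63 and 8.51 in TNF arrays and Pdgfrb at 11.41, 11.45 and 11.71 and 11.09, 10.90 and 11.19. The channel gene Kcnj8 differed by 0.67 ± 0.19 (adjusted p = 0.0627, and 0.0270 with the replicate block). The lower pericyte count was 0 without TNF array 1 and 1 without control array 2, control array 3 or TNF array 2, and with the replicate block 2 members were called higher.

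Endothelial markers were called in 2 of 26, 7.69% beside 6.37% of all genes, with a median of -0.05. Their summed levels were 12700 to 15300 on the control arrays and 12300 to 13300 on the TNF arrays, which overlapped. The lower count was 2 without control array 1. Cldn5, a tight-junction claudin, was 9.30, 9.07 and 9.17 on control and 8.68, 8.51 and 8.49 on TNF arrays, a fall of 0.62 ± 0.12 (adjusted p = 0.0058). The rise of Sox7, 0.33 ± 0.08, was not called when any 1 of the 6 arrays was left out, nor with the replicate block. Cdh5 differed by 0.30 ± 0.10 (adjusted p = 0.119). Of 9 genes used as lymphatic markers 3 were higher and 0 lower: Ccl21, at 4.96, 4.59 and 4.69 in control and 5.75, 6.24 and 6.48 in TNF arrays; Reln, at 5.30, 4.83 and 5.23 and 6.20, 6.12 and 6.68, a rise of 1.22 ± 0.16; and Pdpn, up 0.62 ± 0.08. Pdpn and Ccl21 are also made by stromal cells, and the lymphatic receptor genes Flt4 and Lyve1 differed by 0.17 ± 0.08 and -0.52 ± 0.14 (adjusted p = 0.052 for Lyve1, and 0.0286 with the replicate block). With the replicate block 2 of the 9 genes were lower.

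Monocyte and pan-myeloid markers were higher in 5 of 23 and lower in 0, with a median of 0.02, and 1 was lower without control array 1 or 3. Fgr, a Src-family kinase of myeloid cells, was 6.84, 6.67 and 6.76 on control and 8.04, 7.82 and 8.11 on TNF arrays, a rise of 1.23 ± 0.10 (adjusted p = 6.89e-06). Cybb was 10.10, 10.17 and 10.26 in control and 11.09, 10.87 and 11.08 in TNF arrays, a rise of 0.84 ± 0.09, and Lyz2, lysozyme, rose by 0.41 ± 0.08. Of the 23 markers 21.7% were called, beside 6.37% of all genes, and 18 were not called. An unadjusted p below 0.05 was found for 13, beside 2664 of the 14324 genes tested. The summed level of the list, its called members included, was 13000 to 13900 on the control arrays and 15000 to 17400 on the TNF arrays. Resident macrophage markers were higher in 2 of 25 and lower in 3, with a median of -0.12 and summed levels of 13700 to 15100 without TNF and 11600 to 14300 with TNF. Fcgr2b, the inhibitory Fc receptor, was 8.32, 8.18 and 7.74 in control and 9.10, 8.91 and 8.91 in TNF arrays, a rise of 0.89 ± 0.13, and the transcription factor Maf fell by 0.69 ± 0.12. Cd68, a pan-macrophage marker, differed by 0.28 ± 0.09 (adjusted p = 0.0799) and the complement genes C1qa and C1qc by -0.03 ± 0.12 and -0.16 ± 0.13. The higher resident count was 1 without control array 1 or 3 or TNF array 1 or 3, and with the replicate block 5 were lower and 1 was higher. The part of these myeloid markers in the rises of Clec4d, Ccl3, Ccl6 and Cybb was not tested.

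Lists for blood cells and other cell types held 0 to 2 called genes each, 0% to 25.0% of their measured members beside 6.37% of all genes. Of 18 neutrophil markers 1 was higher (2 without control array 1), Lcn2, at 5.54, 5.58 and 5.07 in control and 6.95, 6.87 and 6.34 in TNF arrays. The list, Lcn2 included, summed to 438 to 494 on the control arrays and 559 to 565 on the TNF arrays. Its median difference was 0.09, and the mean control level of S100a8 was 2.75. Of 23 T and NK cell markers Il7r was higher and Thy1, also a stromal gene, was lower at -0.46 ± 0.10, a call lost without control array 1 or 3 or TNF array 1 or 2. The B-cell kinase Blk, 1 of 10 B-cell markers, was 7.21, 7.37 and 7.35 without TNF and 6.44, 6.32 and 6.52 with TNF, a fall of 0.89 ± 0.10 (adjusted p = 0.000135), while Cd79b differed by -0.06 ± 0.14. Of 13 dendritic cell markers 0 were called and 0 had an unadjusted p below 0.05. Of 12 mast cell markers 2 (16.7%), Hpgds and Kit, were lower, Kit at 8.11, 8.04 and 7.73 in control and 7.26, 7.31 and 7.28 in TNF arrays, whereas the tryptases Tpsb2 and Tpsab1 differed by -0.01 ± 0.11 and -0.13 ± 0.12. The summed mast cell level, Hpgds and Kit included, was 536 to 590 in control and 385 to 390 in TNF arrays, which did not overlap. The median difference of the mast cell list was -0.0, so the lower sum does not describe the list as a whole. Pparg was the 1 adipocyte gene of 21 called, at 5.72, 6.07 and 5.77 on control and 5.24, 5.22 and 5.34 on TNF arrays, a fall of 0.58 ± 0.10, and without control array 1 the count was 4. Mesothelin (Msln) was at most 6.07 on the control arrays and 6.86, 6.78 and 7.32 in TNF arrays, a rise of 0.95 ± 0.12, and the keratin Krt18 fell by 0.52 ± 0.10, making 25.0% of a list of 8. The probe sets of Krt18 did not all carry the same call. Ncam1, 1 of 17 Schwann cell markers, was lower at -0.66 ± 0.13, not called without control array 3, and the Schwann count was 2 without control array 1 or with the replicate block. The summed Schwann level was 4420 to 4730 in control and 4090 to 4160 in TNF arrays. Of 7 red blood cell genes 0 were called and 1 had an unadjusted p below 0.05, beside 2664 of the 14324 genes tested.

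**Figure D3:**
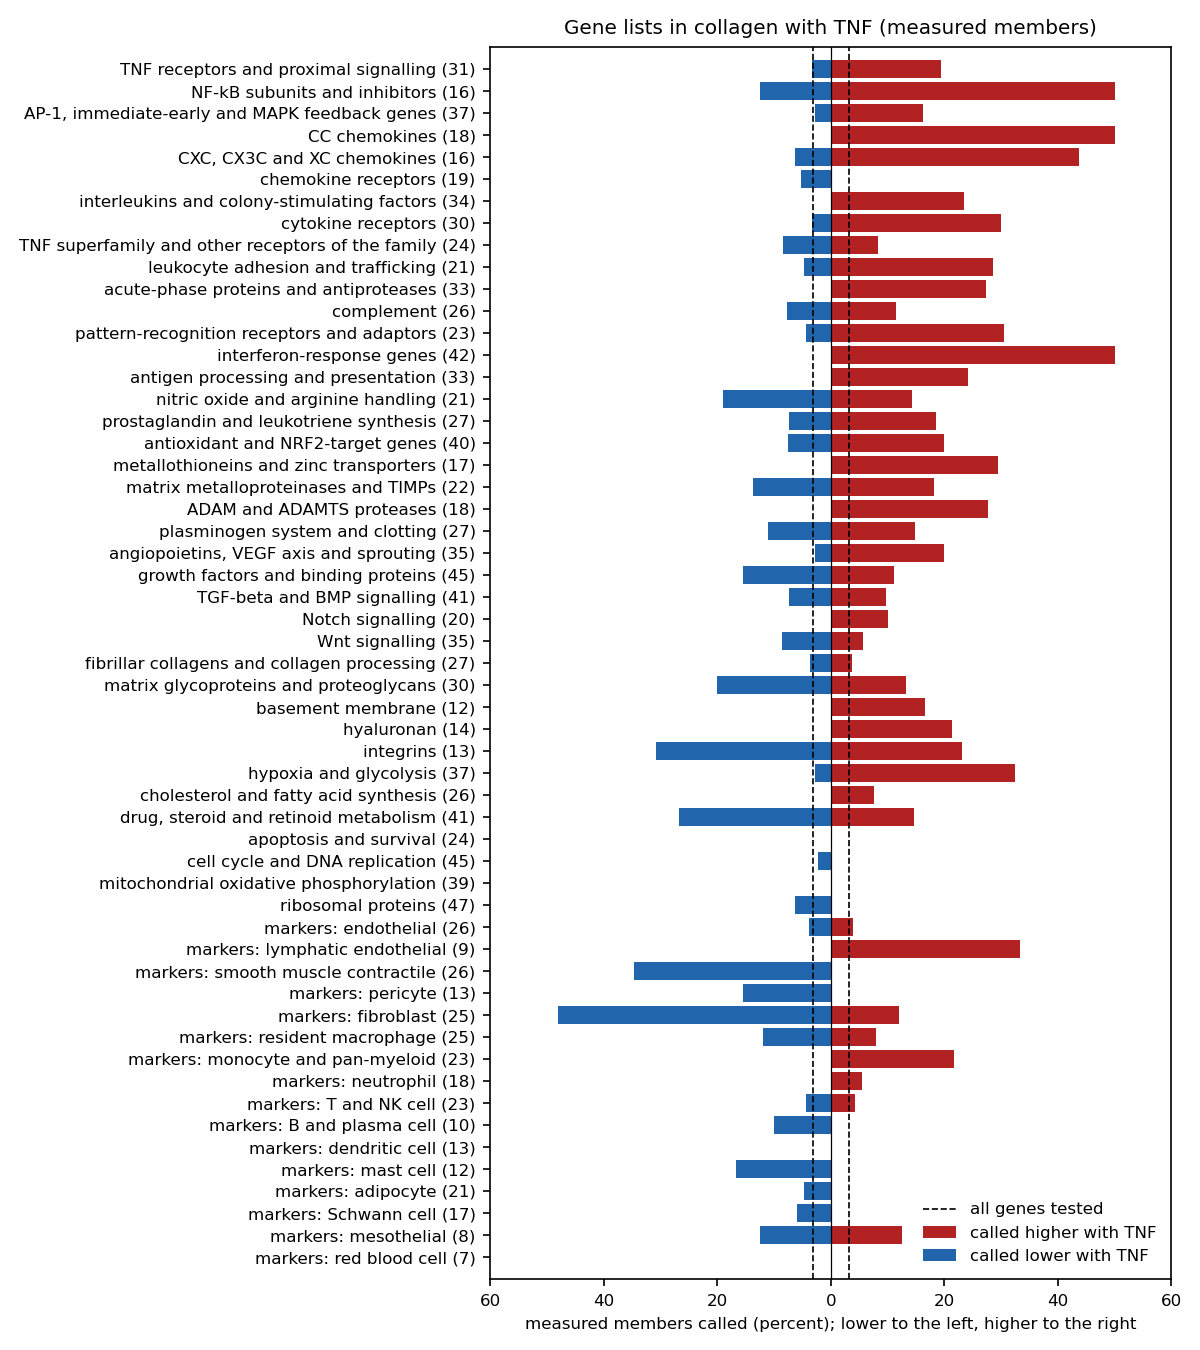
Percent of the measured members of each gene list (number in brackets) called higher (right, red) or lower (left, blue) with TNF in collagen at an adjusted p below 0.05, with dashed lines at 3.27% and 3.10% for all genes tested. The longest red bars are those of the NF-kB genes, CC chemokines and interferon-response genes, and the longest blue bars those of the fibroblast and smooth muscle markers.

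The remaining genes among the 15 largest rises and falls belong to no list. Scin, the actin-severing scinderin, was 5.78, 5.69 and 5.98 on control and 8.99, 9.04 and 8.86 on TNF arrays, an 8.87-fold rise (log2 3.15 ± 0.21, adjusted p = 1.94e-06). Scgb1b24, of the secretoglobin family of near-identical copies, was 6.62, 6.57 and 6.40 in control and 9.14, 9.04 and 8.57 in TNF arrays, a 5.23-fold rise. Their groups were over 1 log2 unit apart. Among the falls, Fcmr, a receptor for IgM, was 7.68, 7.39 and 7.54 without TNF and 5.87, 6.03 and 5.97 with TNF, a fall of 1.58 ± 0.09 (adjusted p = 4.88e-07). Cytl1, a small secreted protein, was 7.13, 7.53 and 6.80 on control and 5.70, 5.70 and 5.60 on TNF arrays, a fall of 1.48 ± 0.16. Pdk4, the kinase that shuts pyruvate dehydrogenase, went from 9.40, 9.69 and 9.78 to 8.32, 7.96 and 8.45, a fall of 1.38 ± 0.18. The groups of these 3 genes did not overlap. Pnoc, the nociceptin precursor, was 8.80, 8.46 and 8.79 in control and 7.37, 7.43 and 7.12 in TNF arrays, a fall of 1.38 ± 0.10. Htr2b, a serotonin receptor, was 8.04, 8.47 and 8.52 in control and 7.18, 6.94 and 6.82 in TNF arrays, a fall of 1.37 ± 0.14. Pkhd1l1, a large membrane protein, was 6.94, 7.02 and 6.45 in control and 5.61, 5.71 and 5.26 in TNF arrays, a fall of 1.27 ± 0.17. All 30 genes kept their calls under every alternative run, with any 1 array left out, with other scalings and with the replicate block.

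**Figure D4:**
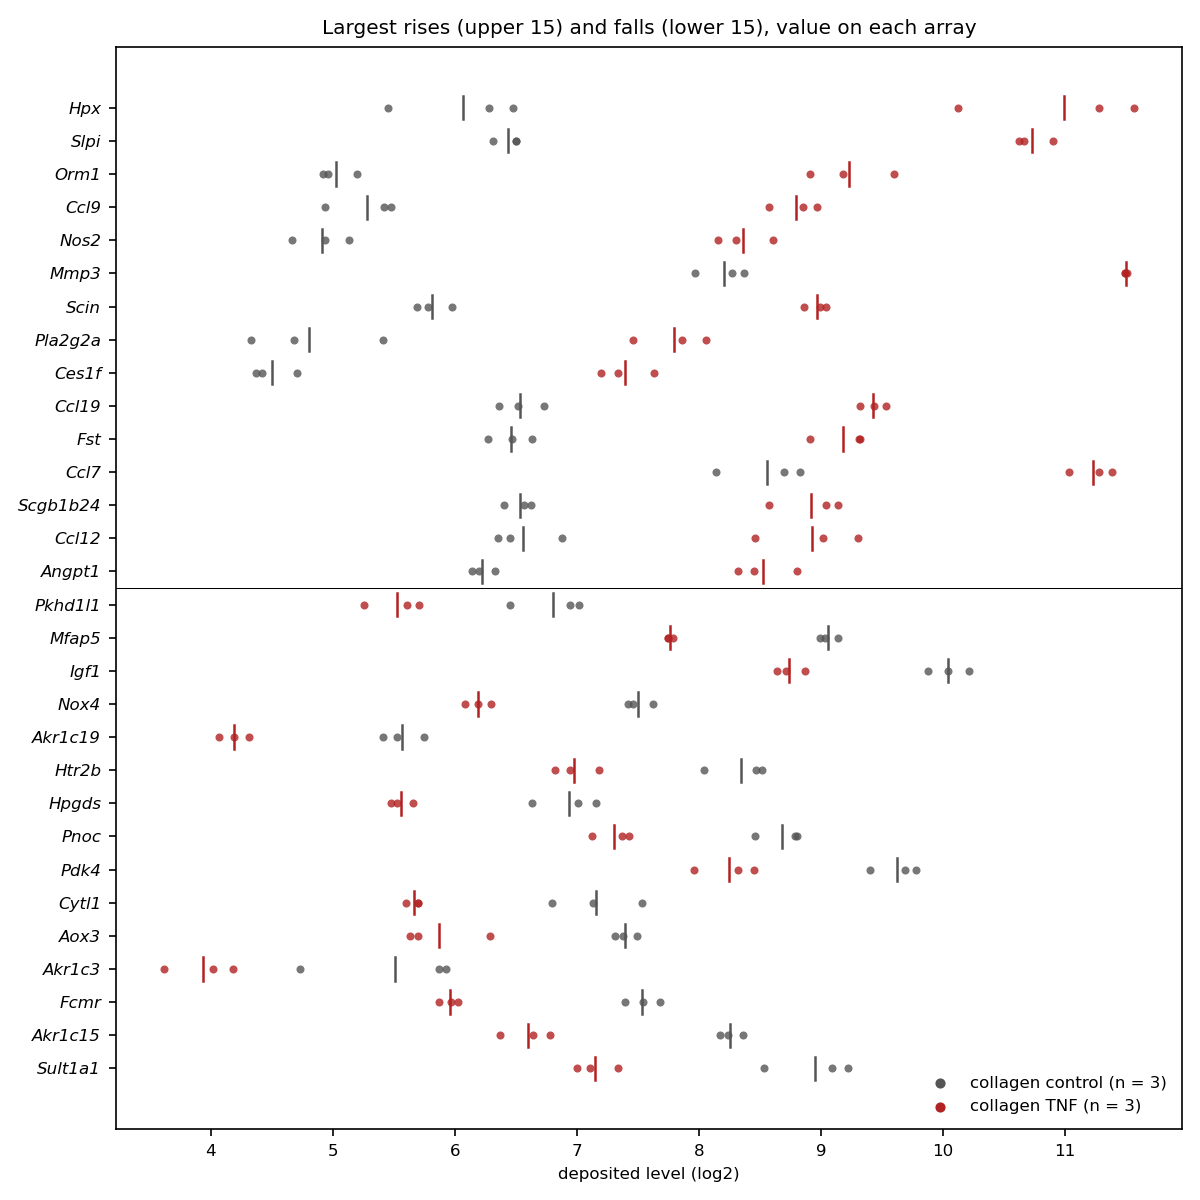
Deposited log2 level on each array (x axis, points) and group mean (vertical lines) for the 15 genes with the largest rises and the 15 with the largest falls (y axis), for 3 control arrays (grey) and 3 TNF arrays (red). In every gene the grey and red points do not overlap, from Hpx with 5.45 to 6.48 against 10.12 to 11.56 down to Sult1a1 with 8.53 to 9.22 against at most 7.34.

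The same TNF dose in fibrin gel called 448 genes, 3.13% of those tested. The TNF effect itself differed between the gels for 177 genes, 1.24% of those tested. It was called for 137 of the 912 genes called in collagen, 102 of them higher and 35 lower in collagen. Both the call in collagen and the difference use the same 6 collagen arrays, so the direction of these differences is not independent of how the genes were chosen. Without TNF array 1, TNF array 2 or fibrin control array 2 the count of 177 was 117, 103 or 112. The largest differences among the genes called in collagen were those of Hpx and Slpi. Hpx rose by 4.91 ± 0.56 in collagen and differed by 0.11 ± 0.56 in fibrin, a difference of -4.80 ± 0.79 (fibrin minus collagen, adjusted p = 0.0107). Slpi rose by 4.29 ± 0.16 in collagen and differed by 0.22 ± 0.16 in fibrin, a difference of -4.07 ± 0.23 (adjusted p = 5.1e-06). C3, at 1.73 ± 0.17 in collagen and -0.59 ± 0.17 in fibrin, and Gabrp, a GABA-A receptor subunit at 1.28 ± 0.24 and -1.03 ± 0.24, had estimates of opposite sign. Whether the negative fibrin estimates were called on their own is not reported here. Nos2, at 3.44 ± 0.14 in collagen and 1.31 ± 0.14 in fibrin, Ccl9, at 3.52 ± 0.17 and 0.98 ± 0.17, and Scin, at 3.15 ± 0.21 and 1.04 ± 0.21, had positive effects in both gels. In collagen Gabrp itself was 10.03, 9.55 and 9.54 on control and 10.93, 11.01 and 11.03 on TNF arrays.

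**Figure D5:**
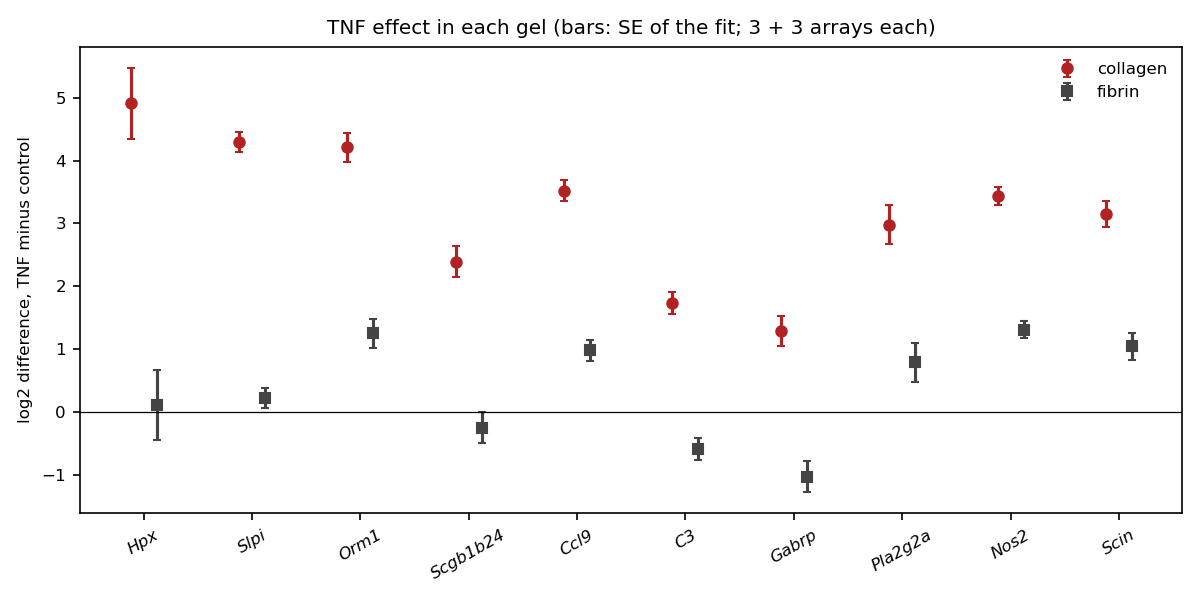
Log2 difference, TNF minus control (y axis), in collagen (red circles) and fibrin (grey squares) for the 10 genes called in collagen whose effects differed most between the gels (x axis), with bars for the standard error of the fit over 3 + 3 arrays. The effects run from 4.91 in collagen against 0.11 in fibrin for Hpx to 3.15 against 1.04 for Scin, and the genes were chosen with the collagen effect.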

How the data were processed

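The authors deposited 1 value table of log2 levels for 27342 Affymetrix probe sets on 12 arrays, with 0 missing values and a range of 1.44 to 14.07. Per the labels' protocols, 200 ng of total RNA per pooled sample was labelled as whole-transcript sense target. The log2 scale was read from the deposited values. The submitters' processing notes name limma with no version; background correction, normalization and summarization are not given in the sources used here. Of the probe sets, 15097 carry 1 gene symbol, 323 several and 11922 none in the platform annotation, and 15067 of the single-symbol probe sets matched RefSeq genes (GRCr8). For 499 of the 14324 genes with several probe sets the brightest was used.

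The deposited values were used without further scaling. limma 3.58.1 in R 4.3.3 fitted 1 mean per group over all 12 arrays (lmFit and eBayes, checked on simulated data); calls are two-sided with a Benjamini-Hochberg adjusted p below 0.05 over all genes, and errors after ± are standard errors of that fit. With 3 arrays per group an exact permutation test of 1 gene cannot go below 0.1. The number of arrays limits the precision. Gene lists were described by counts and medians without a test; summed levels are sums of back-transformed values. The genes compared, the lists and the promoter motifs were chosen with earlier results of these data known. Genes named are the 15 largest rises and falls among calls with non-overlapping arrays, leaving out bare locus numbers, up to 10 called members and 4 others of each list, the genes that define a list and the 10 largest differences between gels; marker genes named in the checks of tissue stand beside them. Replicate numbers were taken to pair the cultures: deviations from the group means correlated at 0.13, 0.14 and 0.14 for same-numbered control and TNF arrays and at -0.10 to -0.04 for the others. Deviations within a group cancel, so the negative values follow from the positive ones and are no separate evidence of pairing. The fit reported has no block for the replicate number. Alternatives were quantile scaling, median centring, dropping the dimmest 33.3% of genes, the 6 collagen arrays alone, a trended and robust prior, array weights, the replicate block, the mean of a gene's probe sets, all probe sets, stricter thresholds and leaving out each array. Promoters are RefSeq sequence of 250 bases before to 50 after the start, searched on both strands.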

Additional observations from a re-analysis of the deposited data

Results flagged for a closer look

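The TNF effect was compared between gels for each gene, and 10 genes called in collagen stood out by the size of a called difference (limma, fibrin minus collagen, adjusted p below 0.05). They were Hpx at -4.80 ± 0.79, Slpi at -4.07 ± 0.23, Orm1 at -2.96 ± 0.32, Scgb1b24 at -2.64 ± 0.35 and Ccl9 at -2.53 ± 0.24. The others were C3 at -2.32 ± 0.23, Gabrp at -2.31 ± 0.35, Pla2g2a at -2.20 ± 0.43, Nos2 at -2.13 ± 0.20 and Scin at -2.11 ± 0.30. The genes were chosen with the collagen effect, which enters the difference, so its direction is not independent of that choice. The difference of Pla2g2a (adjusted p = 0.0275) was no longer called without collagen control array 1 or 3, collagen TNF array 2 or 3, fibrin control array 1 or 2 or fibrin TNF array 3. Groups of 3 arrays were too small to look for single outlying arrays.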

How the results depend on the processing

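The 912 calls in collagen (468 higher, 444 lower) numbered 826 to 1209 under the other scalings, filters, priors, weights, probe set choices and the fit of the 6 collagen arrays alone, with 434 to 584 higher and 392 to 625 lower. Leaving out 1 array gave 568 to 769 calls, 312 to 398 of them higher and 220 to 371 lower. An adjusted p below 0.01 left 431 calls (262 higher, 169 lower), and a log2 difference of at least 1 left 132 (96 higher, 36 lower). With the replicate number as a block, since the numbers were taken to pair the cultures, there were 1018 calls (514 higher, 504 lower); of the genes named, 3 lost their call and 8 gained one under the block, as given beside them, and no other call of theirs changed. The 177 differences between gels (53 higher and 124 lower in fibrin minus collagen) became 208 with the block (58 and 150). They became 294 without the dimmest 33.3% of genes, 108 of them higher, and 339 with a trended and robust prior, 127 higher and 212 lower. Leaving out 1 array gave 103 to 246 differences, 22 to 77 higher and 81 to 169 lower. Of 221 named genes called in collagen, 192 kept the call under every alternative run that tested them, 29 lost it under at least 1, and 0 changed sign. A gene among the dimmest 33.3% was not tested in the run that dropped those genes, and was not counted there as losing its call. Of all 912 genes called in collagen, 476 lost the call under at least 1 alternative. Of 71 named genes not called, 16 gained a call under at least 1. Of 110 list counts (higher and lower for each of the gene lists), 15 to 24 moved by over 1.5 times when 1 array was left out, 18 with the replicate block and 1 to 16 under the other alternatives. In 5 of 19 called genes with several probe sets the probe sets differed in sign or call. With 3 arrays a group, differences near the median standard error of 0.09 cannot be told from the spread. Signal over background was not analysed, and the cause of these shifts was not tested.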
